A study of Mus musculus with 37 samples.

Results

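Lymph nodes of the lower gut and of the neck were compared through the RNA held on tagged ribosomes, with 3 libraries of the ceco-colonic node set against 3 of the super cervical node. These are 6 of the 37 libraries in the series, chosen by node as their titles give it, and 10982 of the 56351 genes in the table had enough counts to be tested between them. In RiboTag mice, Cre recombinase switches a ribosomal protein gene, Rpl22, to a version with a haemagglutinin tag, and ribosomes with their mRNA can then be pulled down from the cells in which Cre was active. Both groups carried the same alleles, CD169 Cre KI/KI and Rpl22HA homozygous, so the Cre sat at both copies of the CD169 (Siglec1) locus, and all 6 libraries are labelled as lymph node and cd169 macrophages. Neither age nor sex is given, and the labels do not say whether the 3 libraries of a node came from separate animals, so p-values measure only the spread between these libraries. The same labels describe the Cre as having switched on the tag in every tissue, so a pull-down may hold RNA of cells other than macrophages.

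Lymph nodes filter the fluid of the tissue they drain. Macrophages that line their sinuses catch particles from that fluid, reticular stroma and lymphatic endothelium form the scaffold, and lymphocytes enter through specialised venules. Cells of mesenchymal origin keep a record of where along the body axis they were laid down in the Hox and other homeobox transcription factors that they express. Nodes of the gut are known for plasma cells that make IgA, the antibody class secreted onto mucosal surfaces. Nodes also lie embedded in fat and, in the neck, next to salivary glands, so tissue of these neighbours can come along when a node is dissected.

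The ceco-colonic libraries held 4194213, 2373771 and 2798894 counts and the super cervical libraries 1283757, 3520593 and 9067640. Levels below are CPM, the count of a gene as a rate per library after TMM scaling, and 3 counts correspond to 0.660 to 1.28 CPM in ceco-colonic and 0.248 to 3.25 CPM in super cervical libraries, which covers counting error only. Ranks of genes correlated at a Spearman coefficient of 0.908 to 0.918 among ceco-colonic libraries and of 0.765 to 0.871 among super cervical ones. Super cervical 3 correlated at 0.845 to 0.871 with ceco-colonic libraries, above its 0.765 to 0.839 within its own node. Super cervical 2 stood at 0.865 to 0.896 across nodes and 0.839 to 0.871 within, and super cervical 1 at 0.816 to 0.829 across. Ranks thus did not group the super cervical libraries by node. Super cervical 1 and 3 correlated least, at 0.765, and each stood apart in some measure. Super cervical 1, the shallowest library, had 27.3% of its counts in 3 ribosomal features, against 7.91% and 8.76% in the other super cervical and 7.73% to 17.7% in ceco-colonic libraries. Super cervical 3 was the deepest, its nuclear noncoding RNA Malat1 was at 23195 CPM against 90559 and 69065 CPM in the other super cervical libraries, and its heat shock gene Hsp90aa1 was at 2932 CPM against 10162 and 12731 CPM. The Y-linked gene Ddx3y was at 57.9, 1.28 and 0.808 CPM in ceco-colonic and 2.16, 28.6 and 1.49 CPM in super cervical libraries, so 1 library of each node was high and its part in the results was not tested.

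Defining macrophage genes only partly matched the label. Marco, a scavenger receptor of sinus macrophages, was abundant, at 2537, 971 and 844 CPM in ceco-colonic and 2289, 1833 and 674 CPM in super cervical libraries. Siglec1 itself was at 0, 1.28 and 0.404 CPM in ceco-colonic and 3.25, 0 and 0.166 CPM in super cervical libraries. Adgre1, which encodes the macrophage antigen F4/80, was at 0.993 CPM or less in all 6 libraries, and Vsig4 had no counts. Rpl22, which cannot show the tag in a gene count, was at 109, 138 and 152 CPM in ceco-colonic and 130, 127 and 158 CPM in super cervical libraries.

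Between the nodes, 24 of 10982 genes passed an adjusted p of 0.05, or 0.219% of those tested (edgeR quasi-likelihood test, Benjamini-Hochberg adjustment). Of these, 13 were higher in the ceco-colonic node (0.118%) and 11 were lower (0.1%). The higher genes included Hox genes, the IgA heavy chain and joining chain, and genes of fat and lipid metabolism. The lower genes included 3 salivary products, the homeobox gene Pitx1, the chemokine Ccl8 and the mast cell protease Mcpt4, beside Bglap3, Smim22, Scart1, Mdn1 and Gm42427, which are on no gene list. At an unadjusted p under 0.05 stood 761 genes (6.93%), and over the 10982 genes the log2 fold change had a median of -0.08. Libraries of the groups did not overlap in all 24 called genes, against 12.8% of all genes tested. The calls were chosen by p in these same libraries, so this is no separate support for them.

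**Figure D1:**
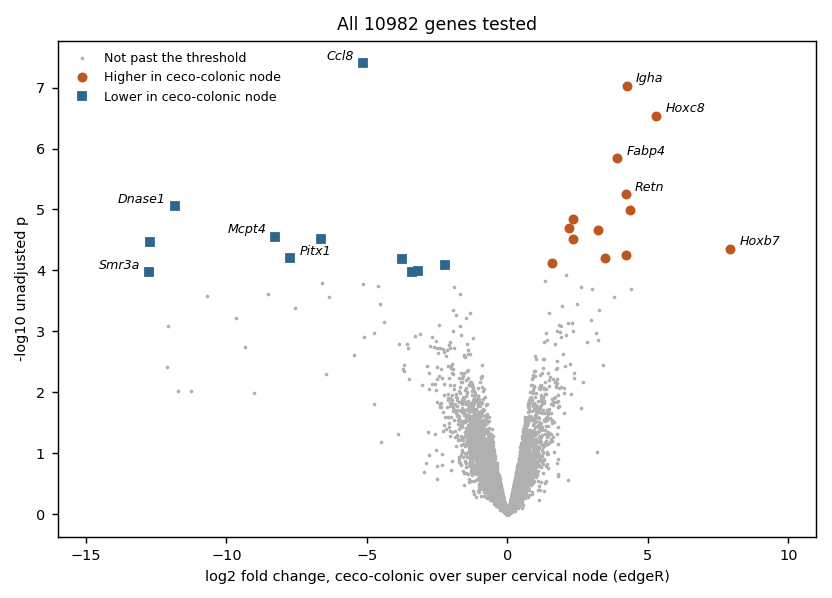
Each point is 1 of the 10982 genes tested, with the log2 fold change of ceco-colonic over super cervical node on the x axis and -log10 of the unadjusted p on the y axis; orange circles and blue squares are the 13 higher and 11 lower genes past the adjusted threshold. Ccl8, Igha and Hoxc8 stand highest; the x positions of Hoxb7, Mcpt4 and Bpifa2, which had no counts in 1 node, depend on the model and are not estimates of size.

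**Figure D2:**
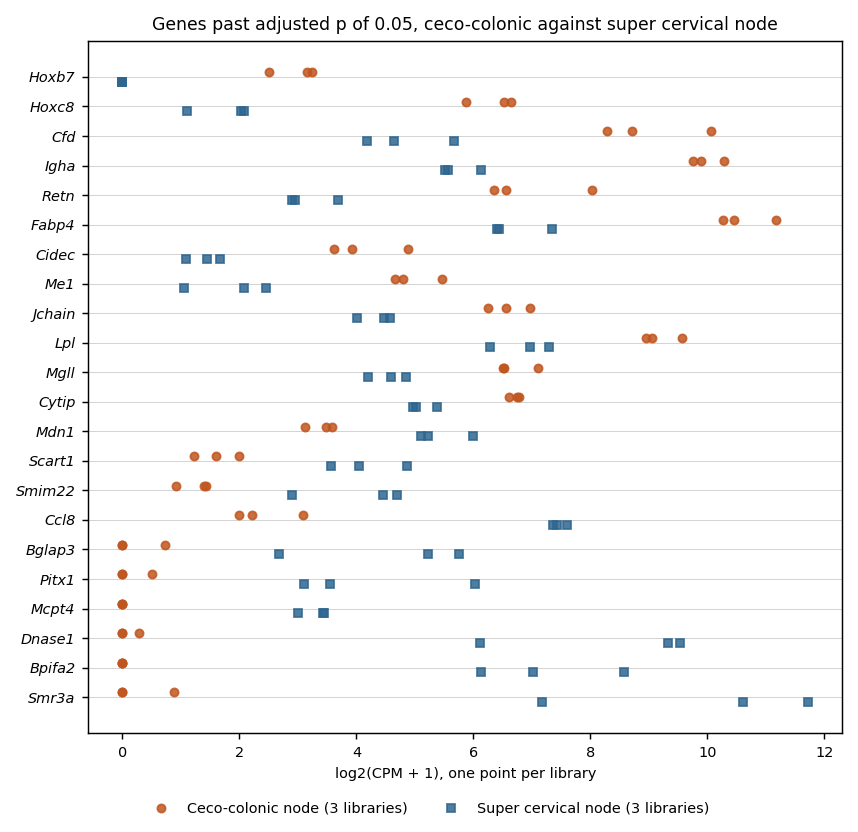
Called genes that the naming rule or a gene list covers, in each of the 6 libraries as log2(CPM + 1), with ceco-colonic libraries as orange circles and super cervical libraries as blue squares, ordered by fold change. The 3 libraries of one node lie apart from the 3 of the other in every row, which choosing genes by p in these libraries favours. The gap is widest for Dnase1, Bpifa2 and Smr3a at the bottom.

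Promoter sequence is shown for 2 genes that were low in both gut nodes, Ccl8 and Mcpt4, and for Nkx2-3, whose difference hung on 1 library, so that the regions upstream of them can be read beside their levels. Each stretch is the 250 bases before the start site in RefSeq on build GRCm38.p6, written along the gene's strand. Capitals mark TATAAA, the core of a TATA box, in Ccl8 and Mcpt4, and CCAAT or its reverse complement ATTGG in Nkx2-3, where a match on either strand overlaps the other.
Ccl8, chr11:82114935-82115184, plus strand: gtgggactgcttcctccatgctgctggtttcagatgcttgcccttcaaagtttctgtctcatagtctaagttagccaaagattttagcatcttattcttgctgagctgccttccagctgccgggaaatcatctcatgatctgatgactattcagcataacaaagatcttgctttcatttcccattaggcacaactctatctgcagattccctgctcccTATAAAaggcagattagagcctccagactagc
Mcpt4, chr14:56062311-56062560, minus strand: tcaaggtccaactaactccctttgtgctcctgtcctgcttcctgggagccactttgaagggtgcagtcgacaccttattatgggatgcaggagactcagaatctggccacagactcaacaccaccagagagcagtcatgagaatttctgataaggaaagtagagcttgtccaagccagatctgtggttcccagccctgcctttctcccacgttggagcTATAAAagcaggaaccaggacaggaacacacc
Nkx2-3, chr19:43612075-43612324, plus strand: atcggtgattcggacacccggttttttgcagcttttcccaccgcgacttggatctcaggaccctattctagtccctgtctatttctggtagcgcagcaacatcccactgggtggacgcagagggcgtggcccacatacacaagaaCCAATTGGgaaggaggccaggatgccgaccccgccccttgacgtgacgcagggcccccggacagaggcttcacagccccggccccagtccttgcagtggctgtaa

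Both Ccl8 and Mcpt4 held TATAAA on the gene's own strand, beginning 32 bases before the start site, and no CCAAT. Of the 24 called genes 16 had a RefSeq window of 300 bases (250 before to 50 after the start). TATAAA stood on either strand in at least 1 window of 3 of these 16 genes, the third being Dnase1 on the opposite strand, and of 15.7% of all 27025 genes with a window. CCAAT on either strand stood in at least 1 window of 4 of the 16 and of 41.1% of all genes with one. By window the shares were 13.6% and 37.4% of all 32851. The Nkx2-3 window had 15 CG pairs, that of Ccl8 had 2 and that of Mcpt4 had 3, against a median of 7 over all windows. A match is a run of letters and not a site of binding.

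Hoxc8 and Hoxb7, of the Hox family that sets position along the head-to-tail axis, were higher in the ceco-colonic node. Hoxc8, a trunk-level gene of the C cluster, was at 57.7, 91.2 and 99.4 CPM in ceco-colonic and 3.25, 3.08 and 1.16 CPM in super cervical libraries. The lowest ceco-colonic library was far above the highest super cervical one, and the log2 fold change was 5.31 ± 0.48 (SE, adjusted p = 0.00106). It kept its call with each of the 6 libraries left out, at 4.71 without super cervical 3 to 5.81 without super cervical 2. Hoxb7, of the B cluster, had 36, 11 and 21 counts in ceco-colonic libraries and none in the 3 super cervical libraries, so it was at least 38.8-fold higher against 3 counts over that group (adjusted p = 0.0322). Most of that group's depth lay in super cervical 3, without which the bound was 10.6-fold (adjusted p = 0.0327). Its adjusted p was 0.11 to 0.234 without super cervical 2 or any 1 of the ceco-colonic libraries.

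Of 39 Hox genes listed, 11 were tested and 2 passed, both higher, against 0.118% of all genes tested. Libraries of 8 did not overlap and were higher in the ceco-colonic node, against 6.17% of all genes tested. The median log2 fold change of the 11 was 1.58 against -0.08 over all genes. Hoxb7, with no super cervical counts, and Hoxc8, with 3, 11 and 14, could be tested only through the ceco-colonic libraries. Their direction was thus set in advance, and these shares and the median are no support. Hoxc9, the neighbour of Hoxc8, was at 22.9, 27.3 and 44.4 CPM in ceco-colonic and 2.16, 3.36 and 0.166 CPM in super cervical libraries (4.41 ± 0.81, adjusted p = 0.0676). Of the fits that left a library out, Hoxc9 passed only in that without super cervical 3 (3.36, adjusted p = 0.0105). Hoxb4 was at 63.4, 55.4 and 80.0 CPM in ceco-colonic and 27.0, 37 and 17.4 CPM in super cervical libraries, a log2 fold change of 1.30 ± 0.34 (adjusted p = 0.291). Hoxb4 was thus expressed in both nodes, whereas Hoxc8 was near the floor in the neck. Hoxc6, Hoxa5, Hoxa7 and Hoxb3 also did not overlap, with log2 fold changes of 1.33 to 3.16 and adjusted p of 0.182 to 0.752. Hoxd8, Hoxd9 and Hoxd11, the tested genes of the D cluster, stood at -0.42, 0.04 and 0.06, so no member of that cluster passed in either direction. Of the 39 genes, 5 had no counts in any of the 6 libraries.

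Pitx1, a homeobox gene of hindlimb and of tissues around the mouth, went the other way. It was at 0, 0.426 and 0 CPM in ceco-colonic and 7.57, 10.7 and 64.0 CPM in super cervical libraries (-7.72 ± 1.23, adjusted p = 0.0376). That is 1 count in ceco-colonic 2 and none in the others, against 7, 38 and 773 counts in the super cervical libraries. Pitx1 thus passed the filter only through the super cervical libraries, which set its direction in advance. The sum of salivary gland genes rose in the same order over these libraries, at 528, 3206 and 25467 CPM. Its part in the result of Pitx1 was not tested. The call of Pitx1 was lost without super cervical 2 (-8.07, adjusted p = 0.0935) or any 1 of the ceco-colonic libraries (-10.09 to -6.93, adjusted p = 0.221 to 0.397). Without super cervical 3 it passed at -5.91 (adjusted p = 0.02). Among the 13 tested of 35 other positional homeobox, T-box and related genes it was the only call, and the median of the list was -0.54. Nr2f1, a nuclear receptor of early patterning, was at 17.8, 10.2 and 16.2 CPM in ceco-colonic and 44.4, 44.9 and 29.2 CPM in super cervical libraries (-1.40 ± 0.35, adjusted p = 0.235). The groups did not overlap, but with all 6 libraries Nr2f1 missed the threshold. Of the fits that left a library out, it passed only in that without super cervical 3 (-1.56, adjusted p = 0.0379).

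Nkx2-3, a homeobox factor required for spleen and gut-associated vessels in the mouse, hung on 1 library. It was at 23.3, 29.0 and 25.9 CPM in ceco-colonic libraries and at 0, 0 and 29.1 CPM in super cervical ones. The 3 ceco-colonic libraries and super cervical 3 were thus alike, and the other super cervical libraries had no counts. The log2 fold change was 1.16 ± 1.28 (adjusted p = 0.957) with all 6 libraries. Without super cervical 3 the gene was at least 39.4-fold higher in the ceco-colonic node against 3 counts over the remaining super cervical libraries (adjusted p = 0.00121). Super cervical 3 also had the highest sum of salivary gland genes, 25467 CPM against 528 and 3206 CPM in super cervical 1 and 2. Any link of that sum to Nkx2-3 was not tested. Madcam1, the addressin through which lymphocytes home to gut and a known target of Nkx2-3 in the mouse, was at 24.4, 45.2 and 60.6 CPM in ceco-colonic and 20.6, 19.3 and 23.7 CPM in super cervical libraries (1.02 ± 0.37, adjusted p = 0.545).

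IgA genes were higher in the ceco-colonic node. Igha, the heavy chain constant gene of IgA, was at 865, 946 and 1251 CPM in ceco-colonic and 46.5, 44.6 and 69.2 CPM in super cervical libraries. Its log2 fold change was 4.24 ± 0.34 (adjusted p = 0.000517), and 4.08 to 4.51 with each library left out, past the threshold each time. Jchain, which joins IgA into dimers and IgM into pentamers, was at 124, 75.0 and 93.3 CPM in ceco-colonic and 22.7, 21.3 and 15.1 CPM in super cervical libraries (2.33 ± 0.32, adjusted p = 0.0194). No library of either gene overlapped between nodes. The call of Jchain was lost without super cervical 2 or any 1 of the ceco-colonic libraries (2.13 to 2.50, adjusted p = 0.0607 to 0.11).

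The other immunoglobulin constant genes did not pass. Igkc, the kappa light chain, was at 110, 103 and 125 CPM in ceco-colonic and 60.6, 43.5 and 81.4 CPM in super cervical libraries (0.86 ± 0.29, adjusted p = 0.529). Of the fits that left a library out, Igkc passed only in that without super cervical 3 (1.17, adjusted p = 0.0372). Ighm, of IgM, was at 194, 188 and 185 CPM in ceco-colonic and 154, 135 and 412 CPM in super cervical libraries. Ighg2b, an IgG gene, was at 18.5, 17.5 and 10.9 CPM in ceco-colonic and 23.8, 54.7 and 23.6 CPM in super cervical libraries (-1.13 ± 0.41, adjusted p = 0.563). Of 17 genes tested from 22 plasma cell and immunoglobulin genes, 2 were higher, against 0.118% of all genes tested, and 0 lower, with a median of -0.13. The median was thus near that of all genes, and Xbp1, Mzb1 and Prdm1, transcription and secretion factors of plasma cells, had adjusted p of 0.673, 0.974 and 0.993. In bulk RNA, fewer cells of a type and less RNA per cell cannot be told apart.

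Fat genes were the largest group among the calls. Fabp4, a fatty acid carrier of adipocytes, macrophages and some endothelium, was at 1411, 2305 and 1228 CPM in ceco-colonic and 162, 83.8 and 85.9 CPM in super cervical libraries (3.91 ± 0.42, adjusted p = 0.00395). Cfd, the complement protease adipsin, was at 312, 1073 and 417 CPM in ceco-colonic and 49.8, 17.1 and 24.0 CPM in super cervical libraries (4.38 ± 0.57, adjusted p = 0.0161). Retn, the adipocyte hormone resistin of the mouse, was at 81.0, 259 and 92.9 CPM in ceco-colonic and 11.9, 6.45 and 6.70 CPM in super cervical libraries (4.23 ± 0.52, adjusted p = 0.0123). In all 3 genes ceco-colonic 2 was the highest library and the groups did not overlap. Without super cervical 2 the adjusted p of these genes was 0.0885 to 0.11, and without super cervical 3 those of Cfd and Retn were 0.177 and 0.103, at log2 fold changes of 3.79 to 4.35. Without ceco-colonic 2, Cfd and Retn passed at 3.67 and 3.50.

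Lpl, lipoprotein lipase, was at 491, 755 and 531 CPM in ceco-colonic and 156, 124 and 77.0 CPM in super cervical libraries (2.33 ± 0.34, adjusted p = 0.0256). Cidec, a protein of lipid droplets, was at 11.2, 28.5 and 14.1 CPM in ceco-colonic and 2.16, 1.12 and 1.74 CPM in super cervical libraries (3.46 ± 0.55, adjusted p = 0.0376). Outside the fat list, Me1, malic enzyme, was at 26.6, 43.0 and 24.2 CPM in ceco-colonic and 1.08, 4.49 and 3.23 CPM in super cervical libraries (3.23 ± 0.46, adjusted p = 0.0239). Both Lpl and Cidec belong to fat storage, and malic enzyme supplies reducing power for fatty acid synthesis. Mgll, which releases fatty acids from monoglycerides, was at 90.9, 137 and 89.7 CPM in ceco-colonic and 17.3, 23.0 and 27.6 CPM in super cervical libraries (2.18 ± 0.31, adjusted p = 0.0239). All 4 lost their calls without super cervical 2 or any 1 of the ceco-colonic libraries, at adjusted p of 0.0749 to 0.361 and log2 fold changes of 1.98 to 3.73.

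Of 12 fat genes tested from 22, 5 were higher, against 0.118% of all genes tested, and 0 lower. Libraries of 8 did not overlap and were higher, against 6.17% of all genes, and the median log2 fold change was 2.65. Cidec, with 2, 4 and 21 super cervical counts, passed the filter only through the ceco-colonic libraries, which set its direction in advance. The shares and the median rest in part on such genes and are no separate support. The list's calls numbered 0 without super cervical 2, 3 without any 1 of the ceco-colonic libraries, 6 without super cervical 1 and 4 without super cervical 3. The summed level of the list was 2481, 4766 and 2527 CPM in ceco-colonic and 519, 359 and 295 CPM in super cervical libraries. Thrsp, a regulator of fatty acid synthesis, was at 18.9, 52.4 and 26.7 CPM in ceco-colonic and 1.08, 6.45 and 3.31 CPM in super cervical libraries and missed the threshold (3.0 ± 0.55, adjusted p = 0.0676). Adipoq, the adipocyte hormone adiponectin, was untested at 2.20, 9.37 and 4.44 CPM in ceco-colonic and 0, 0.280 and 0.248 CPM in super cervical libraries. The defining brown fat genes Ucp1, Cidea and Elovl3 were at 2.42 CPM or less in every library, and Lep, the hormone leptin, at 0.561 CPM or less. The called fat genes are members of the list, so its sum and median are not separate from them. The part of fat tissue around the node in these results was not tested. Of 13 macrophage lipid genes, 2 passed, both higher, against 0.118% of all genes tested. Both, Fabp4 and Lpl, stand on the fat list too. Apoe, the apolipoprotein of macrophages, was at 879, 1438 and 1157 CPM in ceco-colonic and 1165, 1292 and 1103 CPM in super cervical libraries (-0.04 ± 0.30, adjusted p = 0.998).

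**Figure D3:**
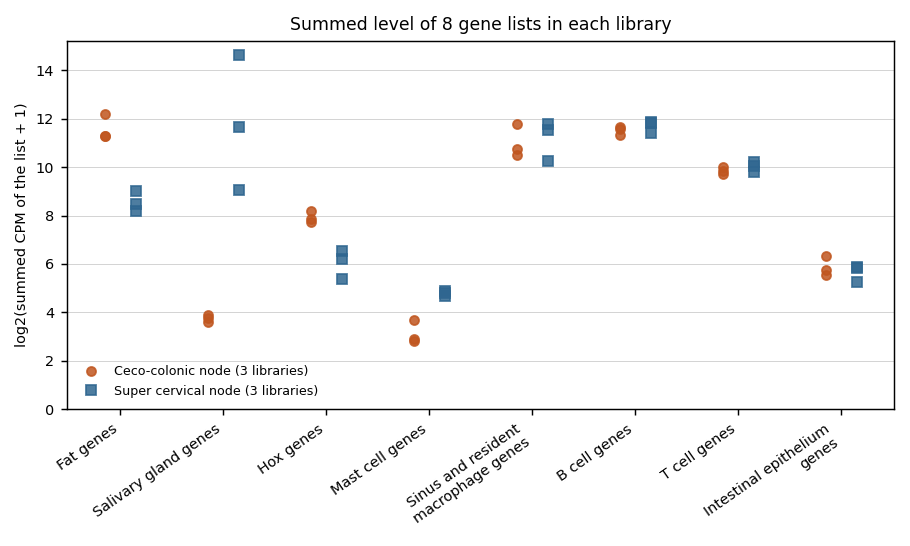
Summed CPM of 8 gene lists in each library as log2(sum + 1), with ceco-colonic libraries as orange circles left of super cervical libraries as blue squares. Fat and Hox sums are higher in all 3 ceco-colonic libraries, salivary and mast cell sums are lower in all 3, and the sums of macrophage and intestinal epithelium genes overlap.

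Salivary gland genes were read in super cervical libraries and hardly at all in ceco-colonic ones. Smr3a, a submandibular secretory protein, was at 0, 0.852 and 0 CPM in ceco-colonic and 144, 1571 and 3383 CPM in super cervical libraries (-12.74 ± 1.71, adjusted p = 0.0490). Bpifa2, the parotid secretory protein, had no ceco-colonic counts and 69.2, 129 and 380 CPM in super cervical libraries, at least 602-fold lower in the ceco-colonic node against 3 counts over that group (adjusted p = 0.0271). Dnase1, a secreted nuclease that salivary glands make in the mouse, was at 0.220, 0 and 0 CPM in ceco-colonic and 68.2, 641 and 744 CPM in super cervical libraries (-11.82 ± 1.30, adjusted p = 0.0161). The level differed greatly among super cervical libraries, lowest in super cervical 1 for all 3 genes. Smr3a lost its call in 5 of 6 fits that left a library out (-15.97 to -11.69, adjusted p = 0.0885 to 0.469), the exception being super cervical 1. Dnase1 lost it without ceco-colonic 1 or 2 or super cervical 3 (-14.02 to -11.22, adjusted p = 0.0687 to 0.188), and Bpifa2 without ceco-colonic 1 or super cervical 2 (adjusted p = 0.0582 and 0.0554). The bound of Bpifa2 was 309-fold without ceco-colonic 1 and 306-fold without super cervical 3.

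Of 8 salivary genes tested from the 26 in the table, 2 were lower, against 0.1% of all genes tested, and 0 higher. Libraries of 6 did not overlap and were lower, against 6.66% of all genes, and the median log2 fold change was -11.49. Genes with few or no ceco-colonic counts, such as Smr3a, Bpifa2 and Amy1, passed the filter only through the super cervical libraries. Their direction was thus set in advance, and these shares and the median are no support. The summed level of the list was 13.9, 11.1 and 12.5 CPM in ceco-colonic and 528, 3206 and 25467 CPM in super cervical libraries. Amy1, salivary amylase, was at 2.20, 0.852 and 1.21 CPM in ceco-colonic and 62.8, 356 and 1276 CPM in super cervical libraries (-8.50 ± 1.29, adjusted p = 0.0775). Muc19, a salivary mucin, was at 0, 0.426 and 0.404 CPM in ceco-colonic and 2.16, 0 and 1169 CPM in super cervical libraries, so nearly all of it was in super cervical 3. Dcpp1, Dcpp2 and Dcpp3 are near copies of one another, so their counts can trade reads, and they had adjusted p of 0.156 to 0.466. Without super cervical 1, 6 salivary genes passed, and without super cervical 3, 3 passed, all of them lower.

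Other lower genes had a like spread. Bglap3, an osteocalcin family gene with near copies beside it, was at 0.660, 0 and 0 CPM in ceco-colonic and 5.41, 36.4 and 53.1 CPM in super cervical libraries (-6.63 ± 0.97, adjusted p = 0.0256). Smim22, a small membrane protein of epithelia, was at 0.881, 1.70 and 1.62 CPM in ceco-colonic and 6.49, 21.0 and 24.9 CPM in super cervical libraries (-3.75 ± 0.60, adjusted p = 0.0376). Both were lowest in super cervical 1 among the super cervical libraries, as Smr3a, Bpifa2 and Dnase1 were. Krt18, a keratin of simple epithelium, was at 0.440, 2.13 and 2.42 CPM in ceco-colonic and 7.57, 17.9 and 75.6 CPM in super cervical libraries (-4.54 ± 0.88, adjusted p = 0.0993). Bglap3 and Smim22 lost their calls without super cervical 2 or any 1 of the ceco-colonic libraries (-10.14 to -3.43, adjusted p = 0.11 to 0.298). Bglap3 stood at the lower end without ceco-colonic 1, which held its only ceco-colonic counts, and passed at -6.00 without super cervical 3. The salivary sum rose in the same order over the super cervical libraries, and its part in the result of these genes was not tested. Intestinal epithelium genes gave no call in edgeR, with 0 of 3 tested past the adjusted and 0 past the unadjusted p of 0.05, 9 of 25 at 0 in all 6 libraries and sums of 46.2 to 80.1 CPM in ceco-colonic and 37.6 to 57.3 CPM in super cervical libraries.

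Ccl8, a chemokine that draws monocytes and T cells and that dermal and sinus macrophages make in the mouse, had the smallest adjusted p of all genes tested. It was at 7.49, 2.98 and 3.64 CPM in ceco-colonic and 194, 164 and 172 CPM in super cervical libraries. The 3 super cervical values were close together, unlike those of the salivary genes, and super cervical 3 did not stand apart. The log2 fold change was -5.15 ± 0.38 (adjusted p = 0.000437), and -5.71 to -4.92 with each library left out, called each time. Ccl12 and Ccl7, monocyte chemokines encoded beside Ccl8 in the mouse, did not overlap between nodes either. Ccl12 was at 4.62, 5.97 and 4.04 CPM in ceco-colonic and 20.6, 17.9 and 17.4 CPM in super cervical libraries (-1.92 ± 0.39, adjusted p = 0.114). Ccl7 was at 4.62, 2.98 and 6.46 CPM in ceco-colonic and 14.1, 32.8 and 12.7 CPM in super cervical libraries (-2.09 ± 0.50, adjusted p = 0.22). Without super cervical 3 both passed (-1.95 and -2.36, adjusted p = 0.0416 and 0.0392), and in no other fit that left a library out.

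Of 15 chemokine ligands tested from 36, 1 was lower, against 0.1% of all genes tested, and 0 higher, with a median of -0.50. Chemokines of the node scaffold overlapped between the nodes. Ccl19, which guides T cells and dendritic cells into the node, was at 989, 910 and 1510 CPM in ceco-colonic and 1078, 899 and 796 CPM in super cervical libraries. Ccl21a, with the same receptor, was at 117, 135 and 144 CPM in ceco-colonic and 43.3, 41.8 and 202 CPM in super cervical libraries (0.43 ± 0.53, adjusted p = 0.962). The super cervical range of Ccl21a enclosed the ceco-colonic one through super cervical 3 alone. Without that library Ccl21a passed as higher in the ceco-colonic node (1.66, adjusted p = 0.0048), and in no other fit that left a library out. Cx3cr1, the receptor for fractalkine on gut and monocyte-derived macrophages, was at 203, 405 and 299 CPM in ceco-colonic and 97.4, 113 and 36.5 CPM in super cervical libraries (1.89 ± 0.43, adjusted p = 0.182). Of the fits that left a library out, Cx3cr1 passed only in that without super cervical 3 (1.53, adjusted p = 0.0407).

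Mcpt4, a chymase of connective tissue mast cells, had no ceco-colonic counts and 9, 25 and 119 counts in super cervical libraries, or 9.74, 7.01 and 9.85 CPM. Against 3 counts over the ceco-colonic group it was at least 27.7-fold lower there (adjusted p = 0.0256), and without super cervical 2 or any 1 of the ceco-colonic libraries its adjusted p was 0.0914 to 0.134. The bound was 14.1-fold without ceco-colonic 1. Cma1 and Tpsb2, a second chymase and a tryptase of these cells, were too low to test, at 0 to 0.426 CPM in ceco-colonic and 3.25 to 4.77 CPM in super cervical libraries. In these 3 proteases no ceco-colonic library reached a super cervical one. Mcpt4 could be tested only through the super cervical libraries, which set its direction in advance. The super cervical values of Cma1 and Tpsb2 began at 3.25 CPM, the level of 3 counts in super cervical 1, so no shared pattern is drawn. Defining mast cell genes did not follow, since Fcer1a, of the IgE receptor, had no counts and Cpa3, carboxypeptidase A3, was at 0.660 CPM or less in all 6 libraries. Of the 17 mast cell genes 1 was tested, and the list summed to 5.94 to 11.7 CPM in ceco-colonic and 24.3 to 28.3 CPM in super cervical libraries.

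Of the remaining called genes, Scart1, a scavenger receptor of gamma delta T cells in the mouse, was at 1.32, 2.98 and 2.02 CPM in ceco-colonic and 10.8, 28.3 and 15.5 CPM in super cervical libraries (-3.19 ± 0.54, adjusted p = 0.0490). Mdn1, a large enzyme that matures the 60S ribosomal subunit, was at 11, 7.67 and 10.1 CPM in ceco-colonic and 33.5, 36.4 and 62.9 CPM in super cervical libraries (-2.22 ± 0.36, adjusted p = 0.0426). Cytip, which tempers adhesion of activated leukocytes, was at 97.1, 107 and 109 CPM in ceco-colonic and 30.3, 40.4 and 31.6 CPM in super cervical libraries (1.60 ± 0.26, adjusted p = 0.0422). None of these genes overlapped between the nodes. The predicted gene Gm42427, picked after its values were seen, was at 60.3, 53.3 and 44.4 CPM in ceco-colonic and 1140, 337 and 203 CPM in super cervical libraries (-3.40 ± 0.58, adjusted p = 0.0490). The calls of Scart1, Mdn1, Cytip and Gm42427 were lost without super cervical 2 or any 1 of the ceco-colonic libraries (adjusted p = 0.11 to 0.421), that of Cytip also without super cervical 1 (adjusted p = 0.0737) and that of Gm42427 also without super cervical 3 (adjusted p = 0.0627). Without super cervical 1, Gm42427 passed at -2.32.

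No macrophage gene on the list passed between the nodes. Of 18 sinus and resident macrophage genes tested, 0 passed in edgeR, and the median was -0.35. An unadjusted p under 0.05 was found for 3 of them, against 6.93% of all genes tested. Marco had a log2 fold change of -0.14 ± 0.52 (adjusted p = 0.993), and the ranges of the nodes overlapped. Csf1r, the receptor for the growth factor of macrophages, was at 22.0, 23.4 and 24.6 CPM in ceco-colonic and 17.3, 30.6 and 17.4 CPM in super cervical libraries (0.09 ± 0.34, adjusted p = 0.993), and Cd68, of the macrophage lysosome, was at 5.13 CPM or less throughout. Mrc1, the mannose receptor, was at 7.49, 3.83 and 1.62 CPM in ceco-colonic and 28.1, 9.81 and 15.4 CPM in super cervical libraries (-1.91 ± 0.59, adjusted p = 0.45). Itgam, the integrin CD11b, was at 21.8, 39.2 and 31.5 CPM in ceco-colonic and 11.9, 11.8 and 5.79 CPM in super cervical libraries (1.71 ± 0.41, adjusted p = 0.218). Both sets of 3 libraries lay apart, yet neither gene passed. Hmox1, which breaks down haem, was at 29.3, 23.9 and 10.5 CPM in ceco-colonic and 64.9, 79.3 and 63.3 CPM in super cervical libraries (-1.69 ± 0.37, adjusted p = 0.156).

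Scaffold genes had one member close to the threshold. Dcn, the matrix proteoglycan decorin, was at 173, 200 and 189 CPM in ceco-colonic and 73.6, 73.2 and 75.1 CPM in super cervical libraries (1.34 ± 0.24, adjusted p = 0.064). The values within a node were close and the groups lay apart. Of the fits that left a library out, Dcn passed only in that without super cervical 3 (1.37, adjusted p = 0.00728). Of 20 reticular and fibroblastic genes tested 0 passed, with a median of 0.39, and 2 had an unadjusted p under 0.05, against 6.93% of all genes. Of 10 lymphatic endothelium genes 1 passed as higher, Fabp4, against 0.118% of all genes, with a median of 0.48. Prox1, the factor that defines lymphatic endothelium, was at 11.7, 7.67 and 5.66 CPM in ceco-colonic and 11.9, 6.45 and 1.99 CPM in super cervical libraries (0.53 ± 0.64, adjusted p = 0.962).

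Lymphocyte and antigen presentation genes gave no calls with all 6 libraries. In edgeR 0 of 16 B cell, 0 of 22 T cell, 0 of 17 dendritic cell, 0 of 15 MHC class II, 0 of 23 interferon-stimulated and 0 of 23 lysosome genes passed. At an unadjusted p under 0.05 stood 1, 2, 1, 0, 3 and 2 of them, against 6.93% of all genes tested. Their medians ran from -0.42 for interferon-stimulated genes to 0.22 for lysosome genes. Cd79a, the B cell receptor subunit, was at 330, 267 and 323 CPM in ceco-colonic and 168, 179 and 234 CPM in super cervical libraries (0.66 ± 0.26, adjusted p = 0.618). Of the fits that left a library out, Cd79a passed only in that without super cervical 3 (0.84, adjusted p = 0.0458). Tox2, a factor of helper T cells in germinal centres, was at 51.1, 37.1 and 33.9 CPM in ceco-colonic and 15.1, 17.7 and 13.9 CPM in super cervical libraries (1.39 ± 0.32, adjusted p = 0.182). Summed B cell genes were at 2613 to 3200 CPM in ceco-colonic and 2738 to 3730 CPM in super cervical libraries, so their ranges overlapped.

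The number of calls hung on single libraries. Without super cervical 3, 146 genes passed, 41 higher and 105 lower, and 19 of the 24 calls were among them. Without super cervical 1, 51 passed, with 23 of the 24. Without super cervical 2, 4 passed, and without ceco-colonic 1, 2 or 3 the counts were 6, 7 and 9. Hoxc8, Igha and Ccl8 passed in all 6 of these fits.

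**Figure D4:**
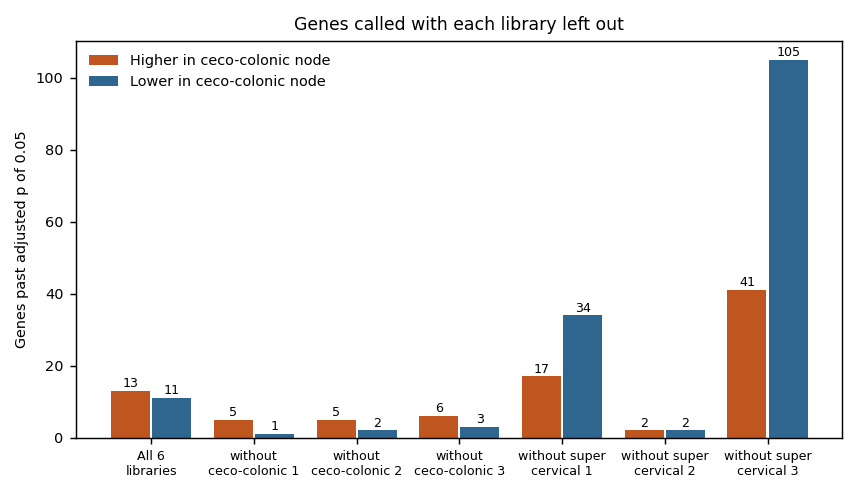
Number of genes past an adjusted p of 0.05 (y axis) with all 6 libraries and with each library left out, as orange bars for genes higher and blue bars for genes lower in the ceco-colonic node. Leaving out super cervical 3 gives 41 higher and 105 lower genes, and leaving out super cervical 2 gives 2 of each.

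A second pair of nodes, ileal against inguinal, shares no library with this comparison and sets another gut node against one of the skin and groin. There 2162 of 18126 genes passed (11.9%), 1018 higher (5.62%) and 1144 lower (6.31%). Of the 24 genes called between ceco-colonic and super cervical nodes, 19 were tested there and 7 passed, all in the same direction. These are 29.2% of the 24 calls and 0.324% of the ileal calls. Of these, Mcpt4 and Smim22 were at 1.70 CPM or less in every ceco-colonic and ileal library. They could be tested only through the other node of each pair. That set their direction in advance, so for them it is no support.

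The shared genes were Igha, Jchain, Hoxb7, Ccl8, Mcpt4, Smim22 and Scart1. Igha was at 1582, 1760 and 2201 CPM in ileal and 8.91, 7.49 and 3.99 CPM in inguinal libraries (8.18 ± 0.44, adjusted p = 4.56e-07), and Jchain at 221, 361 and 216 CPM in ileal and 8.17, 3.15 and 6.29 CPM in inguinal libraries (5.48 ± 0.41, adjusted p = 9.7e-06). Ccl8 was at 2.65, 3.53 and 2.07 CPM in ileal and 57.2, 114 and 104 CPM in inguinal libraries (-5.04 ± 0.39, adjusted p = 1.08e-05). Mcpt4 was at 0.309, 0.0763 and 0 CPM in ileal and 12.6, 16.6 and 18.7 CPM in inguinal libraries (-6.90 ± 0.61, adjusted p = 2.22e-05). IgA genes were thus higher and Ccl8 and Mcpt4 lower in the gut node of each pair. Hoxc8 was not, at 70.6 ± 21.1 CPM in ileal and 70.0 ± 21.0 CPM in inguinal node (SD, n = 3 each; 0.02 ± 0.32, adjusted p = 0.977). Fabp4, Cfd, Retn, Lpl, Cidec, Me1 and Mgll did not pass there, at log2 fold changes of -0.85 to 1.14.

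Levels in the other nodes place each difference among the sites of the series. They are CPM scaled over the libraries of 1000000 counts or more, so values for the same library differ slightly from those above, and they are given as descriptions. Hoxc8 averaged 92.9 ± 23.7 CPM in ceco-colonic, 64.6 ± 19.3 in ileal and 64.1 ± 19.5 in inguinal node (SD, n = 3 each), whose ranges overlap. It averaged 2.54 ± 1.11 in super cervical, 0.452 ± 0.456 in deep cervical and 0.193 ± 0.0427 in mediastinal node. Every library of the ceco-colonic, ileal and inguinal nodes was thus above every library of the super cervical, deep cervical and mediastinal nodes. Hoxb7 did not follow the same line, since deep cervical node had 6.6 ± 0.90 CPM beside 7.93 ± 2.37 in ceco-colonic node and 0 in all super cervical libraries.

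Fabp4 was lower in every super cervical library than in any library of the other nodes named here. It averaged 1852 ± 625 CPM in ceco-colonic node, 1764 ± 950 in inguinal, 2596 ± 550 in ileal, 3125 ± 653 in mediastinal and 5839 ± 2594 in deep cervical node, against 112 ± 37.8 in super cervical node and 33.8 ± 21.3 in spleen. Retn and Cfd had the same low pair. Retn averaged 162 ± 109 CPM in ceco-colonic, 8.49 ± 2.56 in super cervical and 7.72 ± 4.14 in spleen, with 63.8 to 189 in the ileal, inguinal, mediastinal and deep cervical means. Deep cervical node, the other node of the neck, had the highest 3-library mean of both genes, though its Retn range overlapped those of ceco-colonic, ileal and inguinal nodes. Cfd likewise had its highest mean there, over a range of 385 to 2885 CPM that overlapped those of ceco-colonic, ileal, inguinal and mediastinal nodes.

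For Ccl8 the gut nodes were the low ones. Ccl8 averaged 5.32 ± 2.85 CPM in ceco-colonic and 2.52 ± 0.67 in ileal node, against 35.5 ± 18.8 in deep cervical, 83.9 ± 27.8 in inguinal, 123 ± 29.6 in mediastinal and 181 ± 7.96 in super cervical node. The lowest deep cervical library, at 19.0 CPM, was above the highest ceco-colonic library, at 8.59 CPM. Mcpt4 divided the nodes likewise, at 0 in ceco-colonic and 0.118 ± 0.148 in ileal node against means of 6.01 to 14.6 CPM in the mediastinal, deep cervical, super cervical and inguinal nodes. Igha was high in ceco-colonic (1148 ± 222 CPM) and ileal node (1690 ± 288), yet mediastinal libraries held 114 to 490 CPM and 1 deep cervical library held 976 CPM beside 9.44 and 14.6 in the others. Jchain averaged 110 ± 29.5 CPM in ceco-colonic and 243 ± 74.9 in ileal node, with 204 ± 21.0 in mediastinal, 58.2 ± 48.3 in deep cervical and 20.2 ± 3.32 in super cervical node, so it was not higher in gut nodes alone.

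Pitx1, Dnase1, Smr3a and Bglap3 were read nearly only in super cervical libraries. Pitx1 averaged 0.158 ± 0.273 CPM in ceco-colonic and 29.3 ± 34.7 in super cervical node, and 1.96 ± 1.33 in deep cervical node, with 0.421 or less in the ileal, inguinal, mediastinal and spleen means. Dnase1 averaged 0.0842 ± 0.146 CPM in ceco-colonic and 515 ± 395 in super cervical node, and 0.977 or less in the means of the other sites shown. Smr3a and Bglap3 stood at 1.21 CPM or less in the mean of every site shown but the super cervical node. Other salivary genes were read in the deep cervical node too, with Dcpp1, Dcpp2 and Dcpp3 at 317, 737 and 2821 CPM in deep cervical 2 and at 31.3 CPM or less in the other deep cervical libraries. Nkx2-3 was at 22.1 to 32.2 CPM in all ceco-colonic and ileal libraries and at 26.4 to 58.3 CPM in spleen, against 0.179 CPM or less in every inguinal, deep cervical and mediastinal library. The 31.5 CPM of super cervical 3 was thus the exception among 12 libraries of these 4 nodes outside the gut.

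**Figure D5:**
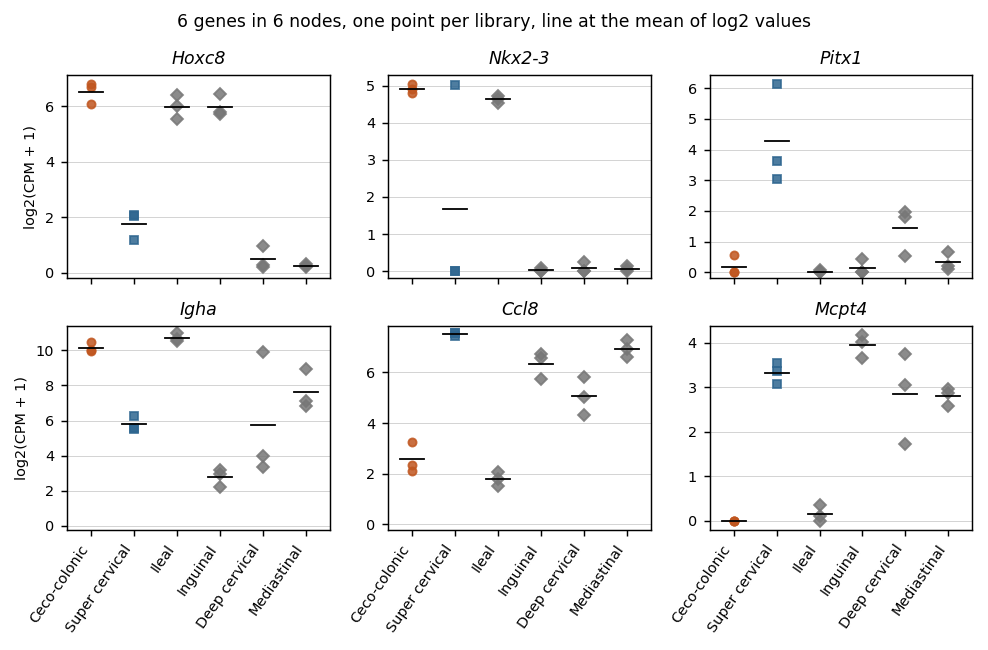
Hoxc8, Nkx2-3, Pitx1, Igha, Ccl8 and Mcpt4 in 6 nodes as log2(CPM + 1), with 1 point per library and a line at the mean of the log2 values; ceco-colonic is orange, super cervical blue and other nodes grey. Hoxc8 is high in ceco-colonic, ileal and inguinal nodes, Ccl8 and Mcpt4 are low in ceco-colonic and ileal nodes, and 1 super cervical library stands with the gut nodes for Nkx2-3.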

How the data were processed

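The authors deposited 1 table of estimated counts for 56351 genes in 37 libraries. The submitters' processing notes list kallisto, limma and edgeR without versions and name both GRCm39 and mm10, so the build behind the counts is not known and only promoter windows, from RefSeq on GRCm38.p6, carry coordinates. Of the deposited estimated counts 32.8% were not whole, and all were rounded before testing. kallisto shares reads among near copies, and strand use is not given in the sources used here. The 211 genes with an ID but no symbol were kept. All 37 columns matched a sample by title.

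Genes were kept with filterByExpr in edgeR 4.0.16 under R 4.3.3 (minimum count 10, minimum total 15). The 6 libraries were scaled with TMM and fitted with a robust quasi-likelihood model of 1 mean per node. Benjamini-Hochberg adjustment ran over every gene in the fit, and calls needed an adjusted p under 0.05. The ± beside a log2 fold change is its standard error. Ileal and inguinal libraries were fitted alone in the same way. A fold against a node with no counts is a lower bound against 3 counts over that node. Alternatives used DESeq2 1.42.0, limma voom 3.58.1, other scalings and filters, a replicate block, wider fits and each library left out.

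Named genes are 6 fixed genes of macrophages and the tag, up to 12 called genes per direction with the largest change, at least 10 CPM and no overlap, without predicted or neighbouring-organ genes, and up to 6 genes with the smallest p in each described list, with any member whose level is needed. Some genes are not reported here. The comparison, the gene lists and the rule were chosen with earlier results of these data known.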

Additional observations from a re-analysis of the deposited data

How the results depend on the processing

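With 3 libraries a node and super cervical totals of 1283757 to 9067640 counts, the number of calls moved with most choices, while the direction of the 24 called genes did not turn in any alternative run. The counts of 13 higher and 11 lower genes became 43 and 75 with DESeq2, 64 and 151 with no filter on low counts, and 29 and 40 in a fit to all libraries of 1000000 counts or more. Lower genes numbered 2 with limma voom and 41 in the fit to all 36 libraries other than the isotype control. With each library left out, higher genes numbered 2 to 41 and lower genes 1 to 105. RLE size factors gave 22 calls and plain library totals 30, with 22 and 17 of the 24 kept. Hoxc8 and Ccl8 passed in all 16 alternatives, Fabp4 in 15, and Igha in 14, the fits to more libraries being the exceptions. For the ileal and inguinal nodes the counts were 1554 higher with no filter, and 238 to 2974 higher and 82 to 3023 lower with each library left out. The cause of these moves was not tested.

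Replicate numbers showed no pairing of the libraries in their deviations from the node mean, which cannot exclude that same-numbered libraries share an animal. Deviations of same-numbered libraries correlated at -0.070, -0.042 and -0.036. With the replicate block 48 genes passed, 18 higher and 30 lower, and 23 of the 24 calls were kept.

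Signs that turned belonged to genes with no call and values near 0. Marco stood at 0.010 with plain library totals, 0.023 in the fit to libraries of 1000000 counts or more, and -0.802 to 0.234 with each library left out. Rpl22 stood at 0.011 with DESeq2, 0.016 with no filter, 0.006 in the fit to 36 libraries, 0.059 in that to libraries of 1000000 counts or more, and -0.152 to 0.077 with each library left out. Csf1r ran from -0.087 to 0.480 with each library left out. Depth limits genes such as Siglec1, Adgre1, Cma1 and Adipoq, which lay near 3 counts in some libraries.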
